A study of Mus musculus with 7 samples.

Results

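The glutathione S-transferases of the alpha, mu and pi classes were followed in mouse livers sampled 8 h after carbon tetrachloride (CCl4). The 10 members were *Gsta1*, *Gsta2*, *Gsta3* and *Gsta4* (alpha), *Gstm1*, *Gstm2*, *Gstm3*, *Gstm4* and *Gstm6* (mu) and *Gstp1* (pi). They were chosen by gene symbol, as the entries of a table of 14851 genes whose Ensembl identifiers carry these symbols in the GENCODE mouse annotation, and all 10 were found. The table gives RNA-seq normalised counts for whole livers of 4 *Albumin-Cre; p53* FL/FL mice (FL) and 3 *Albumin-Cre; p53* WT/WT mice (WT). All were male C57BL/6J (N10) mice aged 70 days that had received 1 intraperitoneal injection of CCl4 in the morning, at 1 mL/kg of a 20% stock in corn oil, so both genotypes carried Cre and both were injured. The Albumin promoter drives Cre in hepatocytes and in the fetal precursors they share with bile duct cells, so bile duct cells may also be recombined, while endothelial, stellate and immune cells are outside its reach. No uninjected liver was analysed here, and the comparison therefore asks how the transferases differ between genotypes after injury, not how injury moves them.

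Glutathione S-transferases join the thiol of glutathione to reactive electrophiles, among them products of lipid peroxidation and of drug metabolism, and the conjugates are then pumped out of the cell and trimmed to mercapturic acids. The alpha, mu and pi classes are the abundant soluble ones in mouse liver, and within each class the genes are close relatives that lie in clusters. Several of them are induced by the transcription factor NRF2, which binds antioxidant response elements when its inhibitor KEAP1 is modified by electrophiles. CCl4 is turned into a radical by cytochrome P450 in hepatocytes around the central vein, which starts lipid peroxidation there.

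The start regions of these genes show how near some relatives are. Most of each region lies before the gene start, so it does not show how well short reads tell the transcripts apart. RefSeq promoter windows on GRCm38.p6, from 250 bases before to 50 bases after the gene start, were found for 9 members, that is for all except *Gsta4*. The windows of *Gsta1* (chr9:78230419-78230718, plus strand) and *Gsta2* (chr9:78347096-78347395, minus strand) matched at 232 of 289 aligned bases, or 80.3%, the highest identity among the members. They are printed 5′ to 3′, and the capitals mark the longest run that both hold, 29 bases beginning 118 bases before the *Gsta1* start and 121 bases before the *Gsta2* start.

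Gsta1 promoter: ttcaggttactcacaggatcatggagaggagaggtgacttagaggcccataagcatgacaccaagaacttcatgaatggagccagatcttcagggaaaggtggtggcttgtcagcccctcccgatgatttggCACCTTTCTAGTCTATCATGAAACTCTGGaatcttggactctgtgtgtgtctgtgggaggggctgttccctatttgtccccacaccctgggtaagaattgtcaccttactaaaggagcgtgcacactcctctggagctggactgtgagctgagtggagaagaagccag
Gsta2 promoter: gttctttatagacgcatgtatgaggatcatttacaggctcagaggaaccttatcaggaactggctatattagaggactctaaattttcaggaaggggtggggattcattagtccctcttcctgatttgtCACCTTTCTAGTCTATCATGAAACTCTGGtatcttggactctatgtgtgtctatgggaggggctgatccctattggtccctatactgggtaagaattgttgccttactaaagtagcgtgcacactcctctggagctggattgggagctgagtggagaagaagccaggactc

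In the mu class, *Gstm3* (chr3:107969125-107969424, minus strand) and *Gstm1* (chr3:108017769-108018068, minus strand) are shown because they varied together among the livers. Their longest shared run, in capitals, is 16 bases and lies just after the gene start. *Gstm1* has a second RefSeq window, and the one further into the gene is printed.

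Gstm3 promoter: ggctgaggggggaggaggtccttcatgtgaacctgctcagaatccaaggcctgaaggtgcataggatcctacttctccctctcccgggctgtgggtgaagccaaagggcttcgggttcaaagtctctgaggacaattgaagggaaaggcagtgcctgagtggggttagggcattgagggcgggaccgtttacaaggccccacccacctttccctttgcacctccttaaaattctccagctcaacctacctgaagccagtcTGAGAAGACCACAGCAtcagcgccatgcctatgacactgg
Gstm1 promoter: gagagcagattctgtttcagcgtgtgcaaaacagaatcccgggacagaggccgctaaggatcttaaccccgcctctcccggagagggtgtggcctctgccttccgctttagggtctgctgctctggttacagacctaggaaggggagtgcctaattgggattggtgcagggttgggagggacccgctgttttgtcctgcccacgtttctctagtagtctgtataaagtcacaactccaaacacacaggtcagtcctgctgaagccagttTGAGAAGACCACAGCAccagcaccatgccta

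The *Gstp1* window (chr19:4037863-4038162, minus strand) is shown for the letters TGANTCA, in capitals, which begin 74 bases before the start. This is the core of the sequence bound by AP-1, and related sequences are bound by NRF2. It was found in 2565 of 32851 mouse windows of the same length (7.81%) and in no other member window.

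Gstp1 promoter: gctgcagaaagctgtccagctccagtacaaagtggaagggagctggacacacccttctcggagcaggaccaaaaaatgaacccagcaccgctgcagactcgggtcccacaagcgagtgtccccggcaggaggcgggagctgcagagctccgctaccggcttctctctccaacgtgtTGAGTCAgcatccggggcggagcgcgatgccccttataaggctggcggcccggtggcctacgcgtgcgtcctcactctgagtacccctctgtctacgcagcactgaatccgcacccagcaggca

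The antioxidant response core TGACNNNGC, searched on both strands, was found in 1 of 13 member windows, that of *Gsta3*, against 12.4% of all windows. TATAAA was found in the windows of *Gstm1* and *Gsta2*, against 13.6% of all. These are letter matches and say nothing on binding in these livers.

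The genotype label was checked on *Trp53*, which had 147 ± 47.7 normalised counts (SD, n = 4) in FL and 798 ± 98.2 (n = 3) in WT livers. Its log2 fold change was -2.47 (SE 0.23, limma adjusted p = 0.0447). The estimated number of reads per liver was 11.87 to 19.53 M in FL and 15.43 to 17.08 M in WT. A pair of livers stood apart. WT replicate 2 differed more than 2-fold from the mean of the other WT livers in 2412 of 12545 tested genes (19.2%), and FL replicate 3 from the other FL livers in 862 (6.87%). The values were 708 and 796 genes for the other WT livers and 227 to 253 for the other FL livers. Without this pair the log2 fold change of *Trp53* was -2.78, and the comparisons of the members are given with all 7 livers and with the remaining 5. The source names begin with 1 prefix in all WT livers and with 2 others in the FL livers. The labels do not say what the prefix marks, and prefix and genotype cannot be told apart.

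Levels can be compared between genes only per length, and per kb of annotated exon the highest were *Gstp1* and *Gstm1*. *Gstp1* had 6514 ± 864 normalised counts per kb (SD, n = 4) in FL and 4998 ± 1078 (n = 3) in WT livers, and *Gstm1* had 5995 ± 1860 and 8888 ± 6071. *Gstp1* was above *Gstm1* in 4 of 7 livers, so their order was not settled by these livers. *Gsta3*, the most abundant alpha transcript here, followed at 1869 ± 242 in FL and 1988 ± 153 in WT. *Gstm1* exceeded *Gsta3* and *Gsta3* exceeded *Gsta4* in 7 of 7 livers. The next 4 by median were *Gsta4*, *Gstm6*, *Gstm4* and *Gstm3*. The ranges of neighbours among these overlapped, although *Gsta4* was above *Gstm6* in 7 of 7 livers, against 5 for *Gstm6* over *Gstm4* and 4 for *Gstm4* over *Gstm3*. *Gstm2* came eighth, below *Gstm3* in 7 of 7 livers, at 158 ± 41.3 in FL and 266 ± 174 in WT. *Gsta2* (80.5 ± 8.51 and 167 ± 48.3) and *Gsta1* (61.5 ± 7.98 and 127 ± 42.4) had the lowest values, and *Gsta2* was above *Gsta1* in 5 of 7 livers. Of the exon stretches of read length, 57.8% for *Gsta2* and 92.3% for *Gsta1* also occur in other genes. The levels were not corrected for shared sequence, so the rank of these genes against the other members is uncertain. For *Gstp1*, *Gstm3* and *Gstm1* the shares were 37.2%, 35.3% and 25.7%, so their ranks carry the same limit. The length used matters most for *Gsta3*, whose joined exons span 4344 bases while its longest coding transcript has 1457. Per kb of that transcript, a length tried after the data were seen, *Gsta3* had 5572 in FL and 5927 in WT livers, against 6850 and 10157 for *Gstm1* and 12282 and 9424 for *Gstp1*. By that length *Gstp1* was above *Gstm1* in 6 of 7 livers and *Gstm1* above *Gsta3* in 6 of 7, so the order of the top 3 depends on the length. *Gsta4* was then above *Gstm6* in only 5 of 7 livers. On that scale *Gstm6* had 644 in FL and 812 in WT livers, and *Gstm2* 249 and 419.

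**Figure D1:**
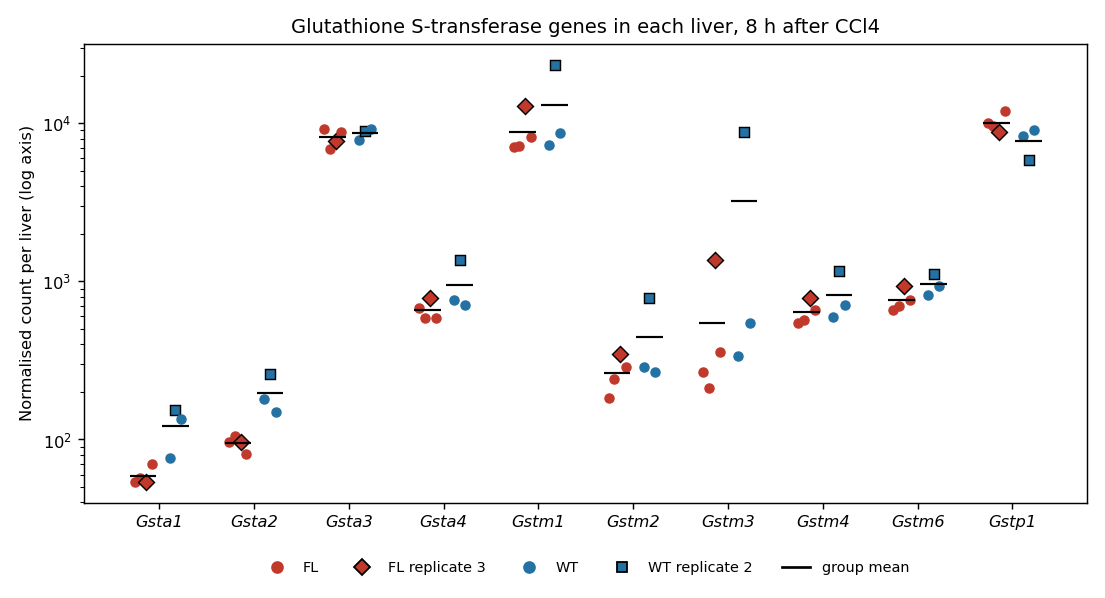
Normalised counts of the 10 members in each liver on a log axis, with 1 point per liver (FL red, WT blue), outlined diamonds and squares for FL replicate 3 and WT replicate 2, and a line at each group mean. *Gsta1* and *Gsta2* are the members whose FL livers all lie below the WT livers, and *Gstm3* spans the widest range, from 211 to 8836.

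Between genotypes, 9 of 10 members were lower in FL than in WT livers by their log2 fold change, against 48.4% of all tested genes. The median over the members was -0.44, against 0.007 over the 12545 genes tested. Much of this rested on WT replicate 2: without that liver alone the median over the members was -0.09, and *Gstm1* was higher in FL livers (0.11). No member passed the adjusted threshold of 0.05 in limma, where 2 genes (0.0159%) passed in all. At an unadjusted p under 0.05 there were 2 members, *Gsta1* and *Gsta2*, against 3.2% of all genes, both lower in FL livers (1.6% of genes). The same 2 members were those whose FL and WT livers did not overlap, against 4.76% of all genes. Complete separation with FL below WT was seen for 2 members (1.98% of genes), and with FL above WT for 0 (2.77%). With 4 against 3 livers the exact two-sided permutation test over 35 splits cannot give a p below 0.029. Without WT replicate 2 and FL replicate 3 the median over the members was -0.25 (all genes -0.013). In that fit 6 members had an unadjusted limma p under 0.05, against 9.74% of genes. Of these, *Gsta1*, *Gsta2*, *Gsta4*, *Gstm3* and *Gstm6* were lower in FL livers and *Gstp1* was higher. Again none passed the adjusted threshold (0.0487% of genes). In whole liver, fewer cells of a type and less RNA per cell cannot be told apart.

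**Figure D2:**
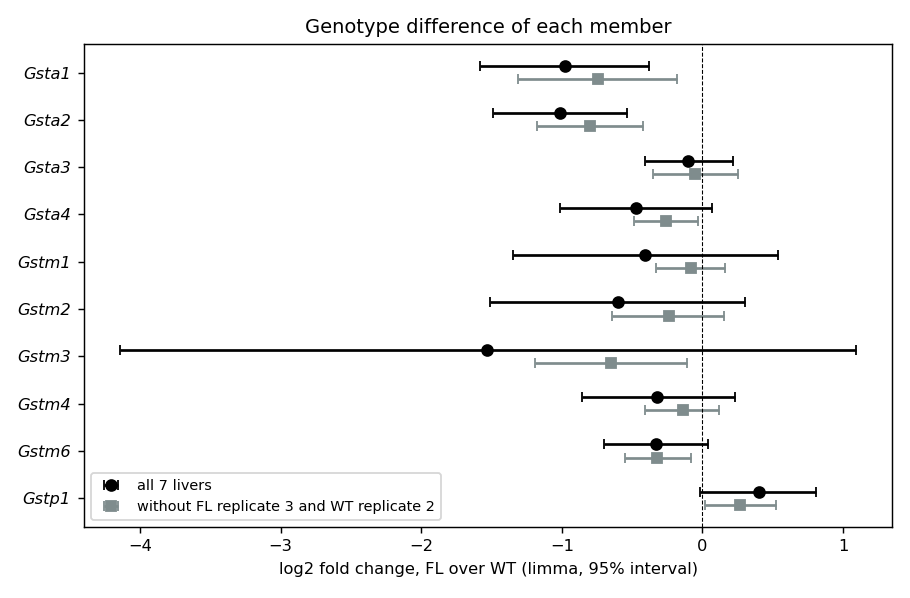
Log2 fold change of each member, FL against WT, with its 95% confidence interval from limma, for all 7 livers and for the 5 livers without WT replicate 2 and FL replicate 3. The intervals of *Gsta1* and *Gsta2* lie below 0 in both fits, and that of *Gstm3* narrows most when the 2 livers are left out.

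*Gsta2* and *Gsta1*, alpha transferases of the chromosome 9 cluster known as inducible by electrophiles, had FL means of 0.482 and 0.484 of their WT means. *Gsta2* (chromosome 9, 78331018 to 78355788, minus strand) stood at 97, 105, 96 and 81 normalised counts in FL and at 180, 260 and 150 in WT, in replicate order, as in all lists of values that follow. The FL livers lay close together, and every one was below the lowest WT liver, replicate 3. The means were 94.8 ± 10 (SD, n = 4) and 197 ± 56.9 (n = 3), with a log2 fold change of -1.01 (SE 0.21, 95% interval -1.49 to -0.54). Its unadjusted limma p was 0.0012, eighth among all genes, with an adjusted p of 0.999 and an exact permutation p of 0.0286. In the 5 livers the log2 fold change was -0.80 (SE 0.17), with an limma adjusted p of 0.176.

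*Gsta1* (chromosome 9, 78230656 to 78242684, plus strand) stood at 54, 57, 54 and 70 normalised counts in FL and at 76, 154 and 134 in WT. The groups did not overlap, but FL replicate 4 and WT replicate 1 were only a few counts apart. The means were 58.8 ± 7.63 (SD, n = 4) and 121 ± 40.5 (n = 3), with a log2 fold change of -0.98 (SE 0.26, 95% interval -1.58 to -0.38). The unadjusted limma p was 0.00539, the adjusted p 0.999 and the exact permutation p 0.0286. In the 5 livers it was -0.74 (SE 0.25, limma adjusted p = 0.379). The transcripts of *Gsta1* and *Gsta2* cannot be treated as independent measurements. Of all 36-base stretches in the exons of *Gsta1*, 92.3% also occur in another gene, 79.1% in *Gm3776* and 53.6% in *Gsta2*, and 57.8% of those of *Gsta2* do so. The reads were 36 bases long and paired, so how the reads of this group were divided among the genes is uncertain.

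*Gsta3* and *Gsta4* differed less between genotypes, and *Gsta3* was the steadiest member over the livers. *Gsta3* (chromosome 1, 21240589 to 21265661), which lies apart from the other alpha genes and is known for conjugating aflatoxin epoxide in mice, stood at 9142, 6846, 7683 and 8801 normalised counts in FL and at 7879, 8900 and 9129 in WT. Its highest liver was 1.34 times its lowest, and the groups overlapped. The log2 fold change was -0.10 (SE 0.13), with a 95% interval of -0.41 to 0.22, which bounds a difference only to that range, and it was -0.05 in the 5 livers. *Gsta4*, which conjugates 4-hydroxynonenal from lipid peroxidation, lies 21.3 kb from *Gsta1* (chromosome 9, 78182774 to 78209349). It had 680, 587, 781 and 584 in FL and 765, 1364 and 709 in WT livers, with FL replicate 3 above WT replicates 1 and 3. Its log2 fold change was -0.47 (SE 0.24, interval -1.01 to 0.07, unadjusted limma p = 0.0817, exact permutation p = 0.114), and -0.26 (SE 0.10) in the 5 livers and -0.17 without WT replicate 2 alone.

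The 5 mu members lie in 1 cluster on chromosome 3, all on the minus strand, and each was highest in WT replicate 2 and, among FL livers, in FL replicate 3. *Gstm3* (chromosome 3, 107963696 to 107969283) stood at 267, 211, 1355 and 356 normalised counts in FL and at 335, 8836 and 545 in WT. WT replicate 2 was 20.08 times the mean of the other WT livers and FL replicate 3 was 4.87 times that of the other FL livers, while the remaining 5 livers overlapped between genotypes. By this deviation *Gstm3* ranked 18 of 12545 genes in WT replicate 2 and 36 in FL replicate 3. Its log2 fold change was -1.53 with a wide 95% interval, -4.14 to 1.09 (SE 1.13, unadjusted limma p = 0.214, exact permutation p = 0.4). In the 5 livers it was -0.65 (SE 0.24, limma adjusted p = 0.434). Leaving out WT replicate 2 alone gave -0.07, and leaving out WT replicate 1 alone gave -2.43, so the size rested on single livers.

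*Gstm1*, the most abundant mu transcript, followed the same 2 livers less steeply. *Gstm1* (chromosome 3, 108012255 to 108017973) had 7032, 7204, 12864 and 8221 in FL and 7235, 23386 and 8657 in WT livers. WT replicate 2 was 2.94 times and FL replicate 3 was 1.72 times the mean of the others of their genotype. The log2 fold change was -0.41 (SE 0.41, interval -1.35 to 0.54). In the 5 livers it was -0.08 (SE 0.11), and without WT replicate 2 alone it was 0.11, so its direction rested on that liver. *Gstm2* (chromosome 3, 107981702 to 107986453) had 184, 240, 347 and 288 in FL and 288, 784 and 266 in WT livers, again highest in WT replicate 2 and, among FL livers, in FL replicate 3. Its log2 fold change was -0.60 (SE 0.39), -0.24 in the 5 livers and -0.10 without WT replicate 2 alone.

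*Gstm4* and *Gstm6*, at either end of the members in this cluster, varied less. *Gstm4* (chromosome 3, 108040408 to 108044894) had 544, 572, 787 and 657 in FL and 599, 1160 and 707 in WT livers. The difference was -0.32 on the log2 scale (SE 0.24), -0.14 in the 5 livers and -0.04 without WT replicate 2 alone. *Gstm6* (chromosome 3, 107938847 to 107943749) had 657, 694, 930 and 757 in FL and 814, 1118 and 940 in WT livers. For *Gstm6* FL replicate 3 was above WT replicate 1, and the other FL livers were below all WT livers. Its log2 fold change was -0.33 (SE 0.16, interval -0.70 to 0.04), and -0.32 (SE 0.10, limma adjusted p = 0.372) in the 5 livers. Of the 36-base stretches of *Gstm3* and *Gstm1*, 35.3% and 25.7% also occur elsewhere, of *Gstm2* 9.6%, of *Gstm6* 8.4% and of *Gstm4* 1.7%.

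**Figure D3:**
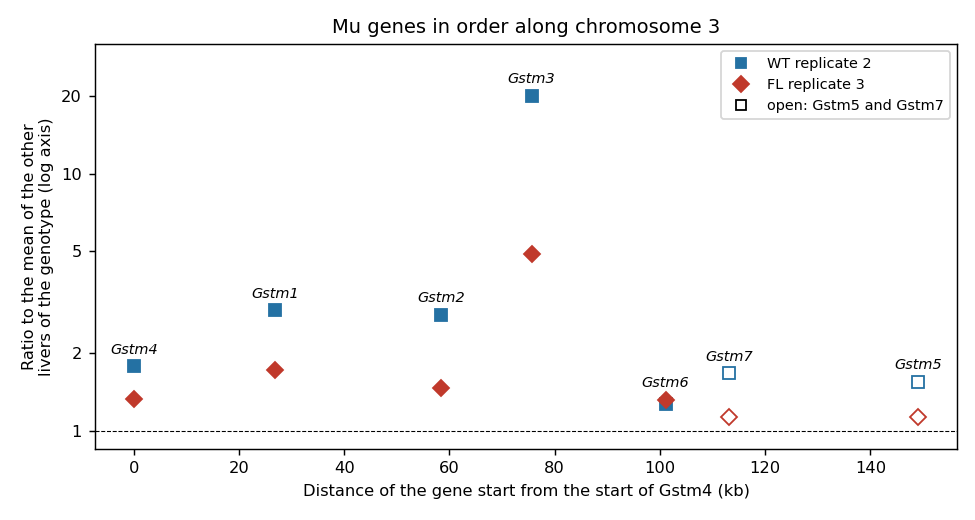
Ratio of WT replicate 2 and of FL replicate 3 to the mean of the other livers of their genotype, for the genes of the mu cluster placed by the distance of their start from that of *Gstm4* in kb, with a log axis for the ratio and open symbols for *Gstm5* and *Gstm7*, which are not members. *Gstm3*, 75.6 kb away, has the highest ratios, 20.08 and 4.87, with lower values at *Gstm2* (58.4 kb) and *Gstm6* (101.1 kb) on either side.

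The size of this deviation did not rise or fall steadily along the cluster. In both livers the highest ratios were those of the neighbours *Gstm3*, *Gstm2* (2.83 and 1.46) and *Gstm1* (2.94 and 1.72). A link to position was not tested. *Gstm7* and *Gstm5*, which lie beyond *Gstm6* at 113.1 and 149.1 kb from the *Gstm4* start and are not members, had ratios of 1.67 and 1.55 in WT replicate 2 and of 1.13 and 1.13 in FL replicate 3. *Gstm6* had 1.27 and 1.32, and *Gstm4* 1.78 and 1.33.

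*Gstp1* was the 1 member that was higher in FL livers by its fold change. The pi class enzyme is known for its wide range of electrophile substrates and, in mouse liver, for its higher level in males. *Gstp1* (chromosome 19, 4035407 to 4037985, minus strand) had 10053, 9539, 8804 and 11937 in FL and 8319, 5855 and 9037 in WT livers. FL replicate 3 was below WT replicate 3, so the groups overlapped, and WT replicate 2 was the lowest of all livers. The means were 10083 ± 1338 (SD, n = 4) and 7737 ± 1669 (n = 3), with a log2 fold change of 0.40 (SE 0.18, interval -0.02 to 0.81, unadjusted limma p = 0.0584, exact permutation p = 0.0857). In the 5 livers it was 0.27 (SE 0.11, limma adjusted p = 0.468). *Gstp2*, a close copy separated from it by 2.3 kb, holds 37.2% of the 36-base stretches of *Gstp1*. It had 846, 878, 805 and 1140 in FL and 816, 557 and 864 in WT livers, and was likewise lowest in WT replicate 2.

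WT replicate 2 was the highest of 7 livers for 8 of 10 members, against 31.5% of all genes, and differed more than 2-fold from the other WT livers for 3, *Gstm1*, *Gstm2* and *Gstm3*, against 19.2%. FL replicate 3 was the highest FL liver for 6 members, against 35% of genes. Both livers were above the mean log2 level of the others of their genotype for 7 members, against 40.9% of genes, and the 2 livers deviated in the same direction for 8 members, against 79.8%. A share of 8 in 10 is near that background, so the shared direction is not particular to the transferases. *Gsta3* and *Gstp1* did not have their highest value in WT replicate 2, and *Gstp1* was lower in both livers. *Gstp1* was also the 1 member that was lowest of all 7 livers in WT replicate 2, against 33.9% of genes.

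**Figure D4:**
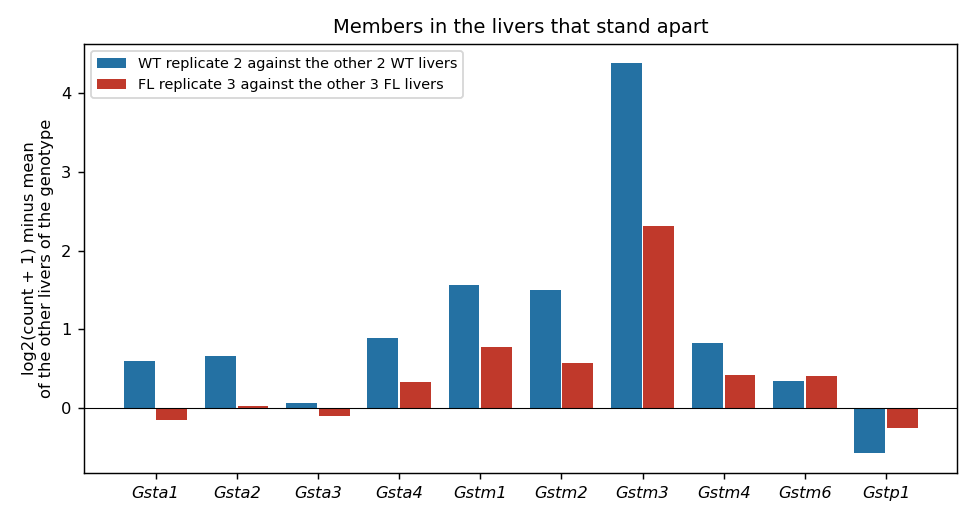
Bars of log2(normalised count + 1) minus the mean of the remaining livers of that genotype, for WT replicate 2 (blue) and FL replicate 3 (red) and each of the 10 members. *Gstm3* has the tallest bars, 4.37 and 2.31, followed by *Gstm1* at 1.56 and 0.78, and both bars of *Gstp1* are negative, at -0.57 and -0.25.

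Marker genes of other cells and states moved in the same livers. The summed level of 8 macrophage genes was 13705 normalised counts in WT replicate 2 against 4979 to 5713 in the other WT livers, and 8314 in FL replicate 3 against 5068 to 6353 in the other FL livers. The 6 stellate cell genes summed to 6978 against 2425 to 2736, and to 3219 against 2590 to 2653. For 10 proliferation genes the sums were 1471 against 296 to 376 and 529 against 325 to 459. Sums of zonation markers differed too. Genes of pericentral hepatocytes, the zone that CCl4 injures, summed to 13625 in WT replicate 2 against 62878 to 70489. In FL replicate 3 they summed to 21764 against 45841 to 58475. Periportal sums were above those of the other livers of the genotype in both. Of 9 pericentral genes, 5 were lowest and 1 was highest of all livers in WT replicate 2, and 8 were lowest among FL livers in FL replicate 3. Of 8 periportal genes, 5 were highest and 1 was lowest in WT replicate 2, and 8 were highest among FL livers in FL replicate 3. The 10 male-biased genes summed to 41366 in WT replicate 2 against 95283 to 109574, whereas FL replicate 3, at 140182, lay inside the range of FL replicates 1, 2 and 4, 103447 to 176686. The 10 female-biased genes, of which 8 were in the table, summed to 3153 against 501 to 858 in WT and to 1365 against 293 to 687 in FL livers. Endothelial and hepatocyte sums were also the highest of their genotype in these livers. For 6 endothelial genes they were 3334 against 2383 to 2614 and 3035 against 2608 to 2839. For 6 hepatocyte genes they were 1377906 against 1135277 to 1202991 and 1727054 against 1334294 to 1633885. Single hepatocyte genes did not all follow the sum. Of the 6, 0 were highest of all livers in WT replicate 2 and 3 were lowest there. In FL replicate 3, 2 were the highest among FL livers and 2 were the lowest. For the 6 stellate genes and for the 6 endothelial genes, 4 were highest and 1 was lowest there. None of the marker genes was listed at 0 in every liver, and the part of these markers in the mu levels was not tested.

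As shares of the summed per-kb level of the 10 members, the mu class made up 38.2% to 45.6% in 5 livers, 57% in FL replicate 3 and 76.9% in WT replicate 2. The pi class, here *Gstp1*, made up 36.2% to 45% in the 5 livers, 29.8% in FL replicate 3 and 12% in WT replicate 2. The alpha share was less variable, 11.1% to 18.8% over the 7 livers. WT replicate 2 had a summed level of 31615 per kb, against 14123 to 19113 in the others, of which *Gstm3* alone held 21.3%. *Gstm3* held 5.41% in FL replicate 3 and 1.13% to 2.58% in the rest. With the longest coding transcript as length, the mu share was 64.3% in WT replicate 2, 42.6% in FL replicate 3 and 25.7% to 31.9% in the others, in the same order. Neither set of shares was corrected for sequence shared between genes.

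**Figure D5:**
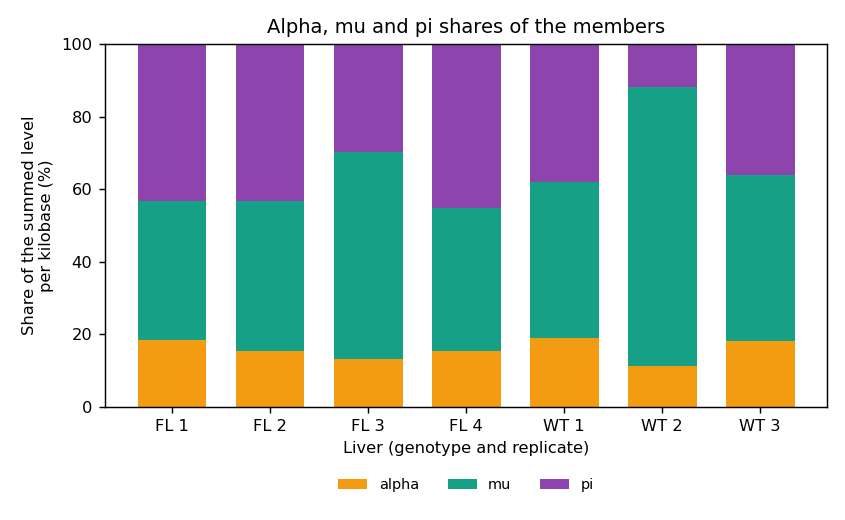
Share of the summed per-kb level held by the alpha, mu and pi members in each liver, as stacked bars that start at 0. The mu share is 57% in FL replicate 3 and 76.9% in WT replicate 2, against 38.2% to 45.6% in the other livers.

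The genes nearest in profile were sought for the 3 members with the widest range, by the root mean square distance of centred log2 values over 7 livers. Nearest to *Gstm3* were *Ccnb2*, a mitotic cyclin (0.33), *Osbpl3*, an oxysterol-binding protein (0.33), and *Col1a1*, a collagen chain (0.37). *Ccnb2* had 7, 8, 39 and 14 in FL and 16, 227 and 20 in WT livers, which is the order of *Gstm3* in broad outline. For *Gstm2* they were *Tbc1d9* (0.12), *Kif12* (0.14) and *Gsn*, an actin-severing protein (0.14), and for *Gstm1* they were *Fcer1g*, an immunoglobulin receptor subunit of myeloid cells (0.08), *Ddr1*, a collagen receptor (0.09), and *Myh10*, a myosin chain (0.10). For *Gsta2*, examined after its values were seen, the list was *Tns4* (0.15), *Sh3pxd2b* (0.17) and *Nqo1* (0.19), a quinone reductase known as an NRF2 target. *Nqo1* had 102, 107, 139 and 84 in FL and 168, 267 and 177 in WT livers. For *Gsta1*, also examined after its values were seen, the nearest genes were *D630003M21Rik* (0.18), *Ptgr1* (0.21) and *Ccng1* (0.23), a known p53 target. *Ccng1* had 395, 384, 353 and 351 in FL and 626, 816 and 848 in WT livers.

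The wider glutathione pathway was read from 5 lists of 65 genes, of which 60 were tested. None passed the adjusted threshold in limma, and 7 had an unadjusted p under 0.05, 6 lower and 1 higher in FL, against 3.2% of all genes. Among 14 other transferases tested none did, with a median log2 fold change of -0.15. *Gstt2*, a theta class enzyme, had the smallest p of these, with 705, 925, 864 and 772 in FL and 875, 1209 and 995 in WT livers (log2 fold change -0.32, unadjusted limma p = 0.0598, exact permutation p = 0.114). Of 13 genes of synthesis and recycling, *Slc7a11*, the cystine importer, was lower, with 209, 435, 488 and 211 in FL and 483, 660 and 851 in WT livers. FL replicate 3 was just above WT replicate 1, and its log2 fold change was -1.05 (SE 0.36, unadjusted limma p = 0.0187, exact permutation p = 0.143). *Cdo1*, which oxidises cysteine and so draws on the precursor of glutathione, was higher, with 25055, 25799, 23925 and 35077 in FL and 20636, 15535 and 21070 in WT livers, without overlap. The log2 fold change of *Cdo1* was 0.52 (SE 0.18, unadjusted limma p = 0.0223, exact permutation p = 0.0286). Over the 5 livers the log2 fold changes were -0.23 for *Gstt2*, -1.26 for *Slc7a11* and 0.44 for *Cdo1*.

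Of 10 peroxidases and glutaredoxins, *Gpx2*, the epithelial glutathione peroxidase, was lower. It had 2, 0, 6 and 1 in FL and 54, 57 and 14 in WT livers, and the fitted log2 fold change of -3.83 (SE 0.79, unadjusted limma p = 0.00129, exact permutation p = 0.0286) depends on the pseudocount at such low counts. *Gpx7* had 33, 37, 38 and 29 in FL and 38, 116 and 40 in WT livers. Of 12 genes of conjugate export and mercapturate formation, 3 had an unadjusted p under 0.05, all lower in FL, with a list median of -0.29. *Abcc2*, the canalicular pump for glutathione conjugates, had 4444, 4484, 3715 and 4104 in FL and 4945, 5509 and 6020 in WT livers. Its groups did not overlap, and its log2 fold change was -0.39 (SE 0.12, unadjusted limma p = 0.0108, exact permutation p = 0.0286). *Abcc1*, a basolateral pump, had 82, 76, 129 and 46 in FL and 150, 166 and 173 in WT livers (log2 fold change -1.05, SE 0.31). Of 11 regulators, *Nfe2l2*, which encodes NRF2, had 1494, 1274, 1274 and 1197 in FL and 1617, 1713 and 1583 in WT livers. The groups did not overlap, with a log2 fold change of -0.33 (SE 0.11, unadjusted limma p = 0.0162, exact permutation p = 0.0571). *Keap1* had 1663, 1716, 1689 and 1490 in FL and 1620, 1338 and 1578 in WT livers (log2 fold change 0.12, unadjusted limma p = 0.307, exact permutation p = 0.286). Over the 5 livers the log2 fold change was -3.98 for *Gpx2*, -1.28 for *Abcc1*, -0.33 for *Abcc2*, -0.28 for *Nfe2l2* and 0.02 for *Keap1*.

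Markers of bile duct cells were read beside these values. Of 5 tested, none passed the adjusted threshold over the 7 livers, and 3 did not overlap between genotypes, against 4.76% of all genes. *Krt19* (21, 11, 6 and 17 in FL, 128, 106 and 26 in WT) and *Krt7* (14, 8, 2 and 18 in FL, 33, 33 and 28 in WT) were lower in every FL liver, whereas *Sox9* (763, 596, 297 and 555 in FL, 261, 249 and 204 in WT) was higher in every FL liver. For *Sox9* the 5 livers gave a limma adjusted p of 0.027, with a log2 fold change of 1.45. *Epcam* (83, 114, 30 and 92 in FL, 133, 95 and 128 in WT) and *Spp1* (601, 525, 268 and 604 in FL, 324, 720 and 818 in WT) overlapped. The summed level of the 5 ranged from 603 to 1482 in FL and from 879 to 1204 in WT livers, so the groups overlapped.

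Genes of intestinal epithelium also moved with *Gpx2*, which that tissue expresses. The list of these genes was added after the values were seen, so its shares of separated or low-p genes are not a test. Of 17 such genes 13 were tested, and 6 of them were completely separated with FL below WT, against 1.98% of all genes. An unadjusted limma p under 0.05 was reached by 10, all lower in FL, against 1.6% of genes. *Agr2*, a protein disulphide isomerase of secretory cells, had 0, 0, 1 and 0 normalised counts in FL and 39, 33 and 5 in WT livers. *Lypd8*, a secreted protein of colon epithelium, had 1, 0, 2 and 1 in FL and 275, 181 and 8 in WT livers, and *Muc13*, a membrane mucin, had 1, 0, 1 and 2 in FL and 84, 53 and 3. As for *Gpx2*, WT replicate 3 was the lowest WT liver for these genes. *Lgals4* (398, 399, 287 and 475 in FL, 435, 683 and 357 in WT) and *Fabp2* (669, 679, 976 and 642 in FL, 600, 1091 and 472 in WT) overlapped between genotypes. *Tff3* overlapped as well (8, 33, 1083 and 63 in FL, 60, 185 and 26 in WT). The summed level of the 16 genes in the table was 1133 to 2370 in FL and 955 to 2757 in WT livers. That sum includes *Lgals4*, *Fabp2* and *Tff3*, so its overlap does not describe *Agr2*, *Lypd8* and *Muc13*. *Gsta1* had its lowest WT value in WT replicate 1, where *Agr2*, *Lypd8* and *Muc13* were highest. *Gsta2* had its lowest WT value in WT replicate 3, where those genes were lowest among the WT livers. The part of bile duct or intestinal epithelial cells in the differences of *Gsta1*, *Gsta2* and *Gpx2* was not tested.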

How the data were processed

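Whole-liver polyadenylated RNA (TruSeq Stranded mRNA) of 4 FL and 3 WT mice was sequenced as paired 36-base reads on a NextSeq 500. The authors aligned reads with Tophat 2.0.13 and Bowtie 2.2.6.0, counted them with HTSeq 2.2.4.0 on Ensembl annotation and scaled the counts with DESeq2, and deposited 1 table of normalised counts rounded to whole numbers, handled here as a score because they are no longer raw counts. The submitters' notes name the build GRCh38, which is a human name. Coordinates printed here are those of GENCODE M21 (GRCm38), matched by Ensembl identifier. The value of 1 read was 0.812 to 1.386 normalised counts, so after rounding the reads of 4 livers could not be recovered, no count test was run, and no counting interval is given. The 14988 table entries hold 14851 identifiers, with 120 of them present more than once with identical values, which were used once.

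Genes with a mean of at least 10 normalised counts (12545 of them, with all 10 members) were tested with limma 3.58.1 (R 4.3.3), with a mean-variance trend on the scale log2(normalised count + 1), with Benjamini-Hochberg adjustment at 0.05. A fold change on this scale understates that of low genes. Single genes were also compared by an exact two-sided permutation test over 35 splits. Levels per kb used the union of annotated exons, and shared sequence was counted as exact 36-base matches between the exons of annotated genes. The labels give no separate litters or days, so p-values measure the spread between these livers. Named genes were the members, *Trp53*, for each pathway list the genes past the threshold and the 2 with the smallest unadjusted p, and the 3 nearest profiles of the 3 most variable members. The members, lists and tests were chosen with earlier results of these data known. Python 3.11.15 was used for tables and figures, and the tests were tested on simulated data. Alternatives covered the pseudocount, the filter, the scaling, the variance model, liver weights, a replicate block and leaving livers out. Protein sequences were not used here.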

Additional observations from a re-analysis of the deposited data

Results flagged for a closer look

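Of 24 results with 4 FL livers examined for a single distant liver (a gap to the nearest other liver that took most of the group's range, by Dixon's 95% value), 4 were found, where chance gives about 1.2. In FL replicate 3, *Gstm3* stood at 1355 normalised counts, with the gap taking 0.87 of the range. The mu share of 57% (0.84) and the pi share of 29.8% (0.89) in FL replicate 3 are linked to it, since the shares are parts of 1 sum. *Cdo1* stood at 35077 in FL replicate 4 (0.83). Groups of 3, and so WT replicate 2, were not examined in this way.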

How the results depend on the processing

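No member and no other gene of the glutathione lists passed the adjusted threshold under any of the 18 alternatives, leave-one-out fits included (0 in each for both). Over these, the log2 fold change of *Gsta1* ranged from -1.28 to -0.74 and that of *Gsta2* from -1.19 to -0.73, with the smallest adjusted limma p at 0.156 and 0.114. The median over the members ranged from -0.66 (without WT replicate 1) to -0.09 (without WT replicate 2) when 1 liver was left out. *Gstm1* reversed to 0.11 without WT replicate 2. Of 376 single-gene values, 365 kept their direction and side of the threshold, 10 lost the threshold (all of *Trp53*) and 1 reversed. The number of genes called in the whole table, 2, was 0 with a pseudocount of 5, 0 with a mean of at least 50, 0 without the mean-variance trend, 1 with quantile normalisation, 5 with liver weights, 6 without both livers that stand apart, and 0 to 5 when 1 liver was left out. Unadjusted p under 0.05 was reached by 404 genes with a pseudocount of 5, 316 with a mean of at least 50 and 465 without the trend. The causes of these changes were not tested. The deviations of replicates with the same number had correlations of 0.44, -0.48 and -0.66. WT replicate 2 and FL replicate 3 stand apart and weigh on these values, so they cannot decide whether the numbers mark pairs. Under a replicate block, 0 genes passed (113 at an unadjusted p under 0.05) and the median of the members was -0.40.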

Other observations

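Values chosen after they were seen: *Gclc*, the catalytic subunit of glutathione synthesis, had 35004, 32733, 14021 and 28908 normalised counts in FL and 39532, 6090 and 37506 in WT livers, lowest in the livers where *Gstm3* was highest. *Glul*, the glutamine synthetase of pericentral hepatocytes, had 3702, 4016, 1470 and 3195 in FL and 3838, 1048 and 4538 in WT livers, in the same pattern. *Hsd3b5*, a male-biased liver gene, had 457, 550, 251 and 495 in FL and 779, 2 and 633 in WT livers. *Mki67*, a proliferation marker, had 26, 17, 75 and 18 in FL and 26, 380 and 38 in WT livers. *Gstp3*, a neighbour of *Gstp1*, had 183, 174, 224 and 197 in FL and 191, 390 and 195 in WT livers, highest in WT replicate 2, where *Gstp1* and *Gstp2* were lowest.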
